A study of Homo sapiens with 6 samples.

Results

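In the human bronchial epithelial line Calu-3, which was derived from a lung adenocarcinoma, binding of the transcription factors KLF5 and CEBPB was mapped by chromatin immunoprecipitation and sequencing (ChIP-seq). All 1510 peaks of the KLF5 list and all 69386 peaks of the CEBPB list were used, which together made up 70896 of the 74158 peaks in the series. A list of 3262 KLF5 peaks from a second bronchial line, 16HBE14o-, served only for comparison. Each list was made by the authors from 2 samples of untreated cells, all grown in the same serum-containing medium. Of the Calu-3 KLF5 samples, 1 was precipitated with a rabbit antibody and the other with the Santa Cruz antibody that was also used in 16HBE14o-, and both CEBPB samples with another Santa Cruz antibody. Peaks of the separate samples were not analysed here, so no value below carries an error between samples and no test was made. Intervals are exact (Clopper-Pearson) 95% confidence intervals and cover counting error only. Sequencing depth is unknown, so a site missing from a list does not show a lack of binding.

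KLF5 is a Krüppel-like zinc finger factor of proliferating and barrier epithelia that binds GC-rich boxes, many of them at gene starts. CEBPB is a basic leucine zipper factor that binds palindromes as a dimer and is known for its part in inflammatory, acute-phase and stress responses. The factors belong to different families and recognise unlike sequences, so a shared site can hold separate motifs for each.

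Genes are named from general knowledge of the human genome in hg19, with no annotation of that build used, so no distance to a gene was measured and a name says only which region a peak lies in. Promoters of 3 genes are shown because both factors were listed at the DBI and DDIT3 regions, and the highest KLF5 peak of the list lay at the HES1 region. They are RefSeq sequences of assembly GRCh38.p14, of the 250 bases before the gene's most upstream listed start, written 5′ to 3′ on the gene's strand. Capitals mark KLF boxes (CCNCNCCC or its reverse GGGNGNGG) and CEBP sites (TTNCNNAA or its reverse TTNNGNAA), searched on both strands. The peaks are on hg19 and positions were not converted, so where a peak lies on these letters was not determined.
DBI, chr2:119366727-119366976, plus strand: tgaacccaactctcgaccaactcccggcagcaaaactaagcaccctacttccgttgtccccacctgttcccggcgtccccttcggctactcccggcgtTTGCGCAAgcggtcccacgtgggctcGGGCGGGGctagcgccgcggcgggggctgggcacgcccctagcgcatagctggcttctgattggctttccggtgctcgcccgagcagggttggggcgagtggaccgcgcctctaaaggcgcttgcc
DDIT3, chr12:57520518-57520767, minus strand: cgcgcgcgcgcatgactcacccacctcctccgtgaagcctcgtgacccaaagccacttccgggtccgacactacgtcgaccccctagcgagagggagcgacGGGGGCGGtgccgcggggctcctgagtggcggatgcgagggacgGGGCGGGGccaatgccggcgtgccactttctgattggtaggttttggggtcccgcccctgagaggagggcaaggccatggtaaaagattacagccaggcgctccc
HES1, chr3:194135898-194136147, plus strand: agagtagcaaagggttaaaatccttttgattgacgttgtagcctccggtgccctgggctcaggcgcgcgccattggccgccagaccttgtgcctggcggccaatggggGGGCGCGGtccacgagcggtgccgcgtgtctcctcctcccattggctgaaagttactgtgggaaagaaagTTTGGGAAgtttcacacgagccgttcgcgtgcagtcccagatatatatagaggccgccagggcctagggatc

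The DBI promoter held 1 KLF box and 1 CEBP site, and the CEBP site was the full palindrome TTGCGCAA, starting 152 bases before the gene start. That palindrome was present in 46 of 35093 RefSeq promoter windows of the same length (0.131%). The DDIT3 promoter held 2 KLF boxes and no CEBP site in this window. In the HES1 promoter there were 1 KLF box and 1 CEBP site, TTTGGGAA, which departs from the palindrome. No KLF box overlapped a CEBP site in the 3 promoters. Over all windows, 53.4% held a KLF box, 33.2% a CEBP site and 11.5% both, so these matches are common and describe the letters only.

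Distances were measured from the midpoint of each KLF5 peak to the nearest CEBPB summit. Many KLF5 sites had a CEBPB summit almost on top of them, while most of the others were over 1 kb from any. A CEBPB summit lay within 25 bp of 298 KLF5 midpoints (19.7%), within 50 bp of 454 (30.1%) and within 100 bp of 561, which is 37.2% of the list (34.7 to 39.6). Widening the window to 250 bp added only 91 peaks, and widening it from there to 1 kb added 109. The median distance over all KLF5 peaks was 924.5 bp, with quartiles at 36.2 bp and 9.09 kb. At the other end, 351 KLF5 peaks (23.2%) had no CEBPB summit within 10 kb, 45 had none within 50 kb and 10 had none within 100 kb. Seen from CEBPB, 561 of 69386 summits (0.809%, 0.743 to 0.878) lay within 100 bp of a KLF5 midpoint, and the median CEBPB summit was 1032 kb from one. With the CEBPB list shortened to its 1510 highest peaks, the length of the KLF5 list, the share was 16.6% from either side and the median distance from a KLF5 midpoint was 252296 bp. With only CEBPB peaks at a q-value of 0.05 or less, the share of CEBPB summits was 1.61% and the median distance 3010.5 bp, and with the higher 50% of both lists the median distance was 2604 bp.

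**Figure D1:**
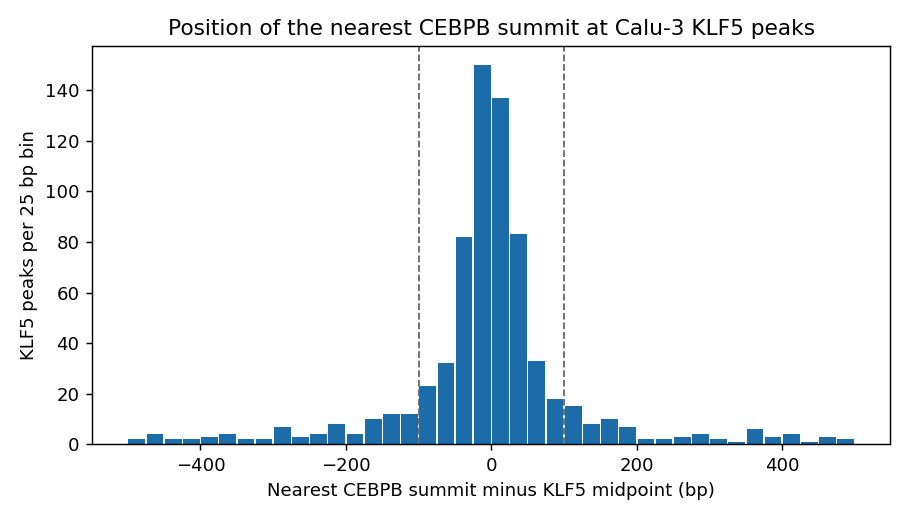
Number of Calu-3 KLF5 peaks per 25 bp bin (vertical axis) against the signed distance from the KLF5 midpoint to the nearest CEBPB summit, in bp (horizontal axis), within 500 bp. The 2 central bins hold 150 and 137 peaks, and the dashed lines mark the 100 bp that counted as the same site.

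Within 100 bp the CEBPB summits were concentrated close to the KLF5 midpoints. The signed offset averaged -1.32 bp with an SD of 39.3 bp over the 561 pairs, and the median size of the offset was 24 bp. The summit lay on the lower-coordinate side in 287 pairs, on the higher-coordinate side in 269 and exactly on the midpoint in 5. Sides follow the reference coordinate and not the strand of a motif, so the even split and the mean say nothing about motif spacing. In the KLF5 list 1499 of the 1510 peaks had a fixed width of 280 bp, and the deposited summit was exactly at the midpoint in 1499. The 561 pairs used 561 different CEBPB peaks, so no CEBPB peak was counted for more than 1 KLF5 peak.

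CEBPB peaks at KLF5 sites were among the strongest of their list, and more so the closer the summits were. Ranks are percentiles of the authors' signal within a list, with 100 for the highest peak. The CEBPB peak nearest to a KLF5 midpoint had a median percentile of 98.2 at 0 to 25 bp, 96.6 at 26 to 50 bp and 83.2 at 51 to 100 bp. It was 70.0 from there to 250 bp, 58.4 up to 1 kb, 53.6 up to 10 kb and 52.5 beyond. On the authors' own scale, the median CEBPB signal was 12.3 for the summits within 25 bp of a KLF5 midpoint and 3.17 for those beyond 10 kb. CEBPB peaks within 100 bp of KLF5 were also wider (median 275 bp against 151 bp), and their q-values were at most 0.05 in 92.2%, against 45.9% of the other CEBPB peaks. The median CEBPB percentile was 97.4 with KLF5 within 100 bp and 47.7 without, a difference of 49.7 points that was 24.3 points within the 1510 highest CEBPB peaks. The KLF5 peaks themselves varied far less with distance. Their median percentile was 55.2 with CEBPB within 100 bp and 47.2 without, with quartiles of 32.9 to 77.7 and 20.9 to 72.9 that largely overlapped. This difference of 8.01 points was -1.19 points when only the higher 50% of each list was used, 14.7 points with the 1510 highest CEBPB peaks, 3.05 points with a window of 1 kb and 3.05 points without chromosomes 3, 8 and 20.

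**Figure D2:**
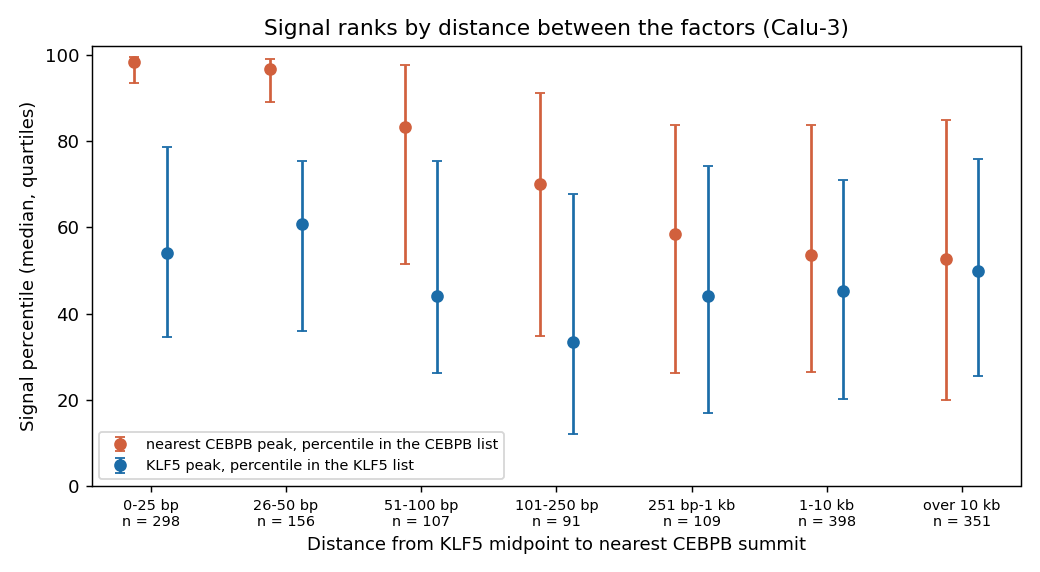
Signal percentile within each list (vertical axis, points are medians and bars run between the quartiles) by distance from the KLF5 midpoint to the nearest CEBPB summit (horizontal axis, with the number of KLF5 peaks). CEBPB medians go from 98.2 in the nearest class to 52.5 beyond 10 kb, whereas the KLF5 medians stay between 33.4 and 60.7.

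Peaks were also ordered by signal, where classes of a list of 1510 peaks and of one of 69386 peaks are not of like size. Among KLF5 peaks, the share with CEBPB within 100 bp lay between 32.5% and 45.0% in the upper 9 of 10 signal classes, around the 37.2% of the whole list. It was 41.7% (33.8 to 50.02) in the highest class and only 13.9% (8.82 to 20.5) in the lowest. Of the 10 highest KLF5 peaks 2 had CEBPB, and of the highest 100, 36 did. KLF5 was at 42 of the 100 highest CEBPB peaks (42.0%, 32.2 to 52.3), at 200 of the highest 1000 and at 422 of the highest 10000 (4.22%), against 0.809% overall. The highest 5% of CEBPB peaks contained 347 of the 561 shared sites (61.9%), while the lower 50% contained 55. At equal list length the difference in median percentile was 24.3 points for CEBPB (17.5 to 28.9) and 14.7 points for KLF5 (7.62 to 20.5). These intervals, from the order-statistic bounds of the shared sites' median, overlapped, so the factors' unequal dependence on signal was not separated from list length.

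**Figure D3:**
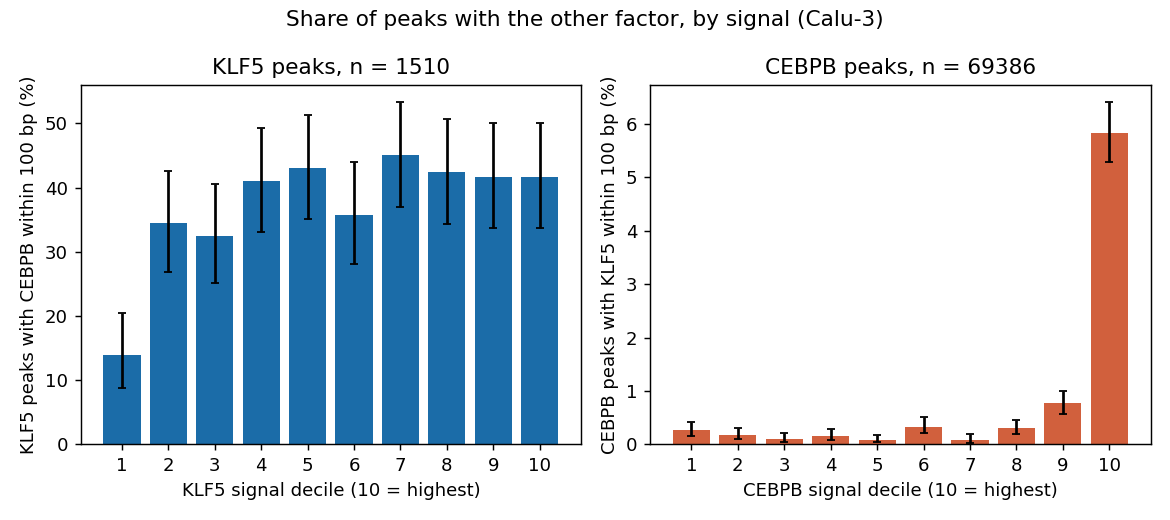
Share of peaks with the other factor within 100 bp, in percent (vertical axes, which differ in scale), by signal class of 10% of each list (horizontal axes, 10 the highest), with exact 95% intervals as bars. KLF5 classes 2 to 10 lie between 32.5% and 45.0%, whereas CEBPB goes from 0.764% in class 9 to 5.84% in class 10.

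Closely spaced entries were most common in the lowest KLF5 class. Another KLF5 entry lay within 1 kb of 55 of its 151 peaks (36.4%), compared with 2.65% to 9.93% in the other classes, and the spacing to that entry was 205 bp in the median (quartiles 200.5 to 218.5). In 41 of the 55 cases that neighbour had the higher signal. CEBPB was within 100 bp of 3 of these 55 entries (5.45%) and of 18 of the 96 entries of that class without a neighbour (18.8%, 11.5 to 28.0). In the other 9 classes the shares were 25.3% (16.6 to 35.7) for 87 entries with a neighbour and 40.7% (38.01 to 43.5) for 1272 without. Within 250 bp, CEBPB was near 16 of the 55 entries with a neighbour in the lowest class (29.1%, 17.6 to 42.9) and 26 of the 87 in the other classes (29.9%). A window of 250 bp exceeds the median spacing of 205 bp, so it can take in a summit at the neighbour. Without a neighbour, the shares within 250 bp were 27.1% (18.5 to 37.1) of 96 entries in the lowest class and 45.9% (43.1 to 48.7) of 1272 in the others. The neighbour itself had CEBPB within 100 bp in 11 of the 55 cases.

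At the 561 shared sites, the ranks of the factors were only weakly related. Spearman's rho between the percentiles was 0.12 over the 561 pairs, which share the cell line and the 2 lists. CEBPB exceeded percentile 90 at 405 of these sites (72.2%), and both factors did at 41. In 9 pairs KLF5 was above percentile 90 and CEBPB below 50. The highest KLF5 peak of these was chr5:138088900-138089031, at the gene of the adherens junction protein CTNNA1, with KLF5 at percentile 99.5 and CEBPB at 5.69. Another, chr20:57226109-57226388, had KLF5 at 96.2 and CEBPB at 0.426. The CEBPB signals of the 9 pairs were low, from 2.06 to 3.12, where the list median was 3.17. Only 32102 of the 69386 CEBPB entries passed the 0.05 limit on q. Whether the CEBPB calls of these 9 pairs passed it was not tested, so binding of both factors there is uncertain. The opposite, KLF5 below percentile 10 with CEBPB above 90, occurred in 12 pairs. The highest CEBPB peak of these was at chr2:202271149-202271428, with a percentile of 99.8, and its summit was 11 bp from a KLF5 peak of percentile 9.54.

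Sites of both factors were ranked by the lower of the 2 percentiles. The first was chr1:31584116-31584395, with a KLF5 signal of 90.6, a CEBPB signal of 41.0 and 14 bp between the points. Next came chr14:35872942-35873221, at NFKBIA, which encodes the inhibitor that holds NF-kB in the cytoplasm. Here the summits were 1 bp apart, with KLF5 at percentile 98.1 and CEBPB at 99.98. A site at TRIB1 on chromosome 8 (126442312 to 126442591), whose product directs the breakdown of CEBPA, stood at 97.7 and 99.9, with the summits 18 bp apart. The region of TGM2, a protein cross-linking enzyme, had chr20:36771739-36772018 at 97.4 and 99.2, and it was also a strong KLF5 site in 16HBE14o- (percentile 99.7).

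DBI, the acyl-CoA binding protein whose promoter is printed above, had chr2:120124279-120124558, with KLF5 at 97.2, CEBPB at 99.9 and 2 bp between the points. At TTC7A, a scaffold protein needed by gut epithelium, chr2:47194384-47194663 had KLF5 at 96.7 and CEBPB at 99.99, 46 bp apart. The remaining 4 of the 10 highest sites were chr12:25539131-25539410, chr3:193721528-193721597, chr20:23342470-23342749 and chr3:156848226-156848505, all with both factors at or above percentile 97.8 except the last, where KLF5 stood at 97.5. Across these 10 sites, the points were 1 to 46 bp apart. A further 2 were chosen after their values were seen. At DDIT3, which encodes the stress-induced CEBP family member CHOP, chr12:57914476-57914755 had KLF5 at 93.4 and CEBPB at 99.4. At NFE2L2, the regulator of the antioxidant response, chr2:178128112-178128391 had KLF5 at 93.0 and CEBPB at 99.03. The offset was 20 bp at both.

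KLF5 sites with no CEBPB summit within 10 kb numbered 351. At the 10 highest of them KLF5 stood between percentiles 96.5 and 99.7. The highest, chr7:577958-578093, had a KLF5 signal of 111, and the nearest CEBPB summit was 14.3 kb away and at percentile 9.59. Sites followed at HR, a nuclear corepressor (chromosome 8, 21988720 to 21988999, signal 95.3), and at UNC13D, which primes secretory vesicles for release (chr17:73840801-73841080, signal 92.0). S100A2, a calcium-binding protein of basal epithelial cells, had chr1:153538994-153539273 with a signal of 85.5 and no CEBPB summit for 30.6 kb. Near ELF3, an ETS factor of epithelia, chr1:201987616-201987895 had a signal of 78.6. The desmosome-linked plakin PPL had chr16:4995802-4996081 nearby at 66.1, and the cytokine gene LIF had chr22:30648494-30648773 nearby at 59.3. Of these 10 sites, 8 were also KLF5 peaks in 16HBE14o-, at percentiles of that list from 85.3 to 99.9. The exceptions were the HR site and chr3:193590119-193590398. Of the 10 highest sites of both factors 2 were in that list, those at NFKBIA and TGM2. At TRIB1 the nearest 16HBE14o- KLF5 midpoint was at -177 bp, beyond the 100 bp that counted. The counts of 8 and 2 stand beside 312 of all 1510 Calu-3 KLF5 peaks (20.7%) and 42.4% of the highest 10%. The full classes above KLF5 percentile 90 lay closer together, with 19 of 35 (54.3%, 36.6 to 71.2) without CEBPB within 10 kb and 8 of 41 (19.5%, 8.82 to 34.9) with CEBPB also above 90.

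The highest CEBPB peaks without KLF5 were in the opposite position. The highest peak of the list, chr4:154582359-154583062 with a CEBPB signal of 61.3, lay near the innate immune receptor gene TLR2, and the nearest KLF5 midpoint was 1715 kb away. The fourth of the class, chr1:36952522-36952860 with a signal of 45.7, lay near CSF3R, the receptor for granulocyte colony-stimulating factor and a known target of CEBP factors in myeloid cells, with KLF5 22.7 kb away. GLT1D1, a predicted glycosyltransferase, had chr12:129423427-129423795 at 46.5. The fifth, chr13:73635927-73636925 with a signal of 39.6, lay in the region of the KLF5 gene. Except at CSF3R, the nearest KLF5 midpoint was between 115 kb and 22620 kb away at these 10 sites. A lack of KLF5 is not particular to them. Of all 69386 CEBPB peaks, 67620 had no KLF5 midpoint within 10 kb, as did 91.2% of the highest 10%. The lower quartile of the distance over all CEBPB summits was 316 kb and the median 1032 kb, with only 1510 KLF5 peaks listed.

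Where several KLF5 peaks lay close together, fewer of them had CEBPB, although the loci as wholes did not lack it. Joining KLF5 entries up to 10 kb apart gave 1313 loci, of which 138 held 2 or more. A CEBPB summit was within 100 bp of 41.4% (38.5 to 44.2) of the 1175 single KLF5 peaks, 22.9% (17.4 to 29.1) of the 210 entries in pairs, 22.2% (13.3 to 33.6) of the 72 in loci of 3 and 20.8% (10.8 to 34.1) of the 53 in loci of 4 or more. Counted by locus, at least 1 entry had CEBPB in 38.1% of the pairs, 45.8% of the loci of 3 and 8 of the 9 loci of 4 or more, so the CEBPB of a locus was usually at a single KLF5 entry. With entries within 1 kb counted once, the share in loci of 2 or more minus that of single peaks was -15.2 points, against -18.97 points with all entries. The median KLF5 percentile was 72.1 in the loci of 4 or more and 48.7 for single peaks.

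The locus with the most KLF5 entries was that of PLEC, which encodes the hemidesmosomal linker plectin. Over 16.5 kb of chromosome 8 it had 10 entries with percentiles from 8.01 to 99.8, of which only 1 had CEBPB within 100 bp, at percentile 54.1. CEBPB peaks of a locus were counted to 5 kb beyond its KLF5 entries. Of the 3 CEBPB peaks so counted at PLEC, the strongest (percentile 91.5) was 3617 bp from the nearest KLF5 midpoint. The locus of HES1, a main effector of Notch signalling, had 6 KLF5 entries in 7.3 kb, 4 of them above percentile 96 and the highest of the whole list among them (chr3:193852569-193852984, signal 240). Its 3 CEBPB peaks were at percentiles 42.6, 71.6 and 34.9, and 1 of them lay within 100 bp, at 98 bp from the KLF5 peak of percentile 82.8. LFNG, which glycosylates Notch receptors, had the second-highest KLF5 peak (chr7:2563873-2564091, signal 178) with the nearest CEBPB summit 2174 bp away, at percentile 27.6.

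ID1, an inhibitor of helix-loop-helix factors, had the only locus where 3 KLF5 entries had a listed CEBPB summit within 100 bp, weak CEBPB peaks included. The KLF5 percentiles there were 91.6, 96.03 and 94.97 in genome order, and those of their CEBPB partners 26.5, 97.5 and 99.5, so the KLF5 levels were alike while CEBPB was not. In the region of LAMA5, a laminin chain of epithelial basement membranes, 2 of 5 KLF5 entries had CEBPB, at percentiles 3.85 and 83.2. The region of BCL3, a nuclear IkB protein, had 4 KLF5 entries. The entry chr19:45245107-45245386 carried a CEBPB peak of percentile 99.7, and the entry chr19:45251731-45252010 one of percentile 10.2. At ZBTB7A, a zinc finger repressor, 2 of 3 entries had CEBPB, and the highest CEBPB peak of the locus was at percentile 99.1. The locus of the airway mucin gene MUC5B had 5 KLF5 entries and that of ADAP1 had 7, with CEBPB at 1 and 2 of them. These loci, LFNG and the unequal pairs above were chosen after their values had been seen.

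**Figure D4:**
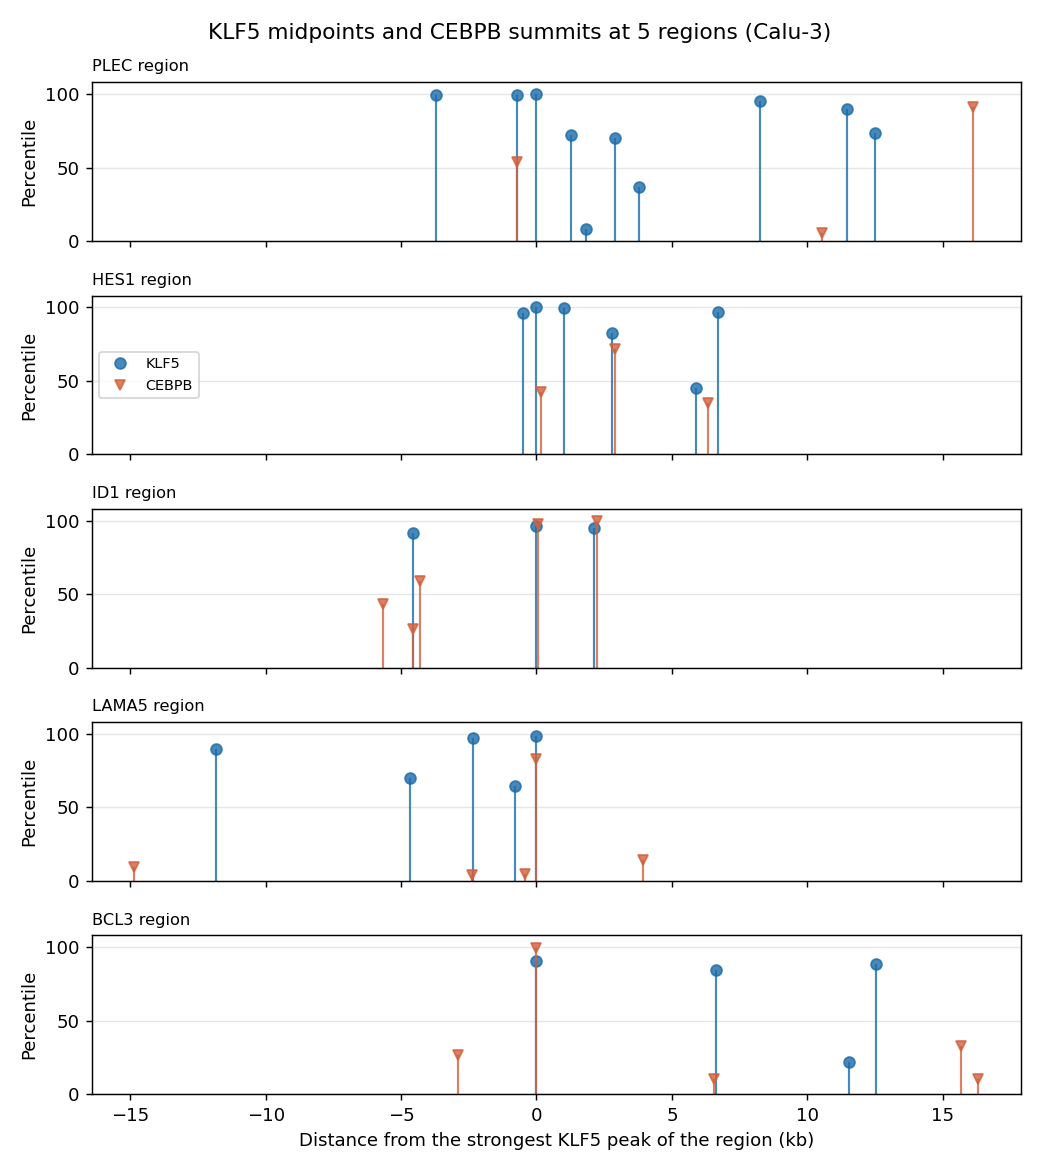
KLF5 midpoints (circles) and CEBPB summits (triangles) at 5 regions, by distance in kb from the region's strongest KLF5 peak (horizontal axis) and signal percentile within the factor's own list (vertical axis). PLEC and HES1 show several KLF5 peaks above percentile 95 with CEBPB peaks apart from them or weaker, whereas at ID1 CEBPB reaches 97.5 and 99.5 beside KLF5.

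The share of KLF5 peaks with CEBPB differed between chromosomes. Of the 20 chromosomes with at least 30 KLF5 peaks, chromosome 4 had the highest share, with 28 of 41 peaks (68.3%, 51.9 to 81.9), followed by chromosome 6 (60.5%, 43.4 to 76.0) and chromosome 14 (57.6%). Chromosome 22 had the lowest, with 8 of 39 (20.5%, 9.30 to 36.5), and chromosomes 3 (27.2%, 21.7 to 33.2), 17 (27.3%) and 19 (28.8%) were also below the 37.2% of the list. The ratio of CEBPB to KLF5 peaks tended to move with these shares, at 87.02 on chromosome 4, 89.7 on chromosome 14, 23.4 on chromosome 22 and 19.2 on chromosome 19. It was 59.4 on chromosome 6, and chromosome 5 had a ratio of 88.4 at a share of 42.3%. Spearman's rho was 0.77 across the 20 chromosomes. Share and ratio both have the number of KLF5 peaks as denominator, so part of this relation can be built in. The points share the same 2 lists, and the part of peak density in the shares was not tested.

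Calu-3 KLF5 sites with strong CEBPB were less often in the 16HBE14o- KLF5 list than the 20.7% (18.6 to 22.8) of all 1510 Calu-3 KLF5 peaks. A 16HBE14o- KLF5 midpoint lay within 100 bp of 41 of the 405 Calu-3 KLF5 peaks that had a CEBPB peak above percentile 90 within 100 bp (10.1%, 7.36 to 13.5). It did so for 55 of the 156 with a CEBPB peak of percentile 90 or less (35.3%, 27.8 to 43.3), for 129 of the 598 with the nearest CEBPB over 100 bp and up to 10 kb away (21.6%, 18.3 to 25.1) and for 87 of the 351 with no CEBPB within 10 kb (24.8%, 20.4 to 29.6). The share with strong CEBPB was the lowest of the classes in every 25% of KLF5 signal. Its interval stood apart from those of all other classes only in the highest 25%. In the highest 25% of KLF5 peaks the shares were 16.8% (10.4 to 25.01) with strong CEBPB, 71.1% (55.7 to 83.6) with weaker CEBPB, 35.4% (27.2 to 44.2) with CEBPB over 100 bp and up to 10 kb away and 43.3% (32.9 to 54.2) with none within 10 kb. For strong, weaker and no CEBPB, they were in the lowest 25% 4.76%, 24.1% and 11.6%, in the next 8.04%, 13.3% and 18.9%, and in the one above 8.55%, 27.03% and 24.7%. Weaker CEBPB thus exceeded no CEBPB in 3 of the 4 signal ranges, and below the highest 25% the intervals of weaker and of no CEBPB overlapped. With CEBPB over 100 bp and up to 10 kb away, the shares below the highest 25% were 11.1%, 23.7% and 21.7%, in rising order of signal. In the lowest 25% the interval for strong CEBPB (0.993 to 13.3) overlapped those of all other classes. In the next (3.74 to 14.7) it overlapped those of weaker and of no CEBPB. In the one above (4.17 to 15.2) it overlapped that of weaker CEBPB. Of the pairs at the extremes, 6 of the 9 sites with KLF5 above percentile 90 and CEBPB below 50 were in the 16HBE14o- list, and 0 of the 12 with KLF5 below 10 and CEBPB above 90 (exact upper bound 26.5%). At another of the 9, chr20:60934561-60934840, the 16HBE14o- midpoint was at -101 bp, just beyond the limit. These groups differ in KLF5 signal too, and the share of all KLF5 peaks was 42.4% in the highest 10% and 5.30% in the lowest. CEBPB in 16HBE14o- was not analysed here, and since a rabbit antibody went into the Calu-3 KLF5 list only, cell line and antibody are confounded in these shares and cannot be told apart. That KLF5 sites with high CEBPB signal were often missing in 16HBE14o- was already known from these lists, so these shares are not independent evidence of it.

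**Figure D5:**
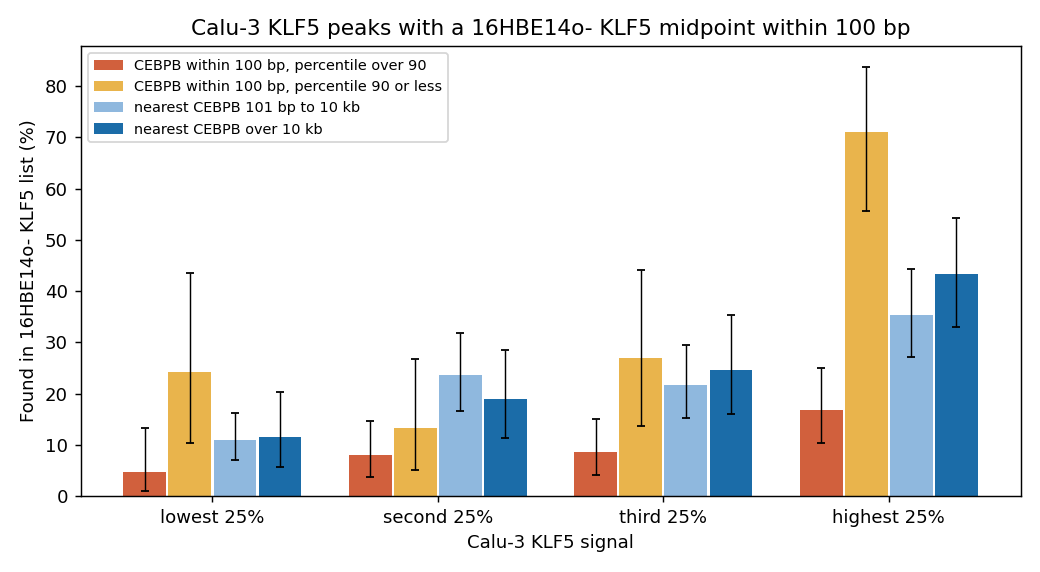
Share of Calu-3 KLF5 peaks with a 16HBE14o- KLF5 midpoint within 100 bp, in percent (vertical axis), by Calu-3 KLF5 signal in steps of 25% of the list (horizontal axis) and by the nearest CEBPB peak (colours), with exact 95% intervals as bars. In the highest 25% the share is 16.8% with strong CEBPB, 71.1% with weaker CEBPB and 43.3% where CEBPB was over 10 kb away.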

How the data were processed

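ChIP-seq of KLF5 and CEBPB in Calu-3 was deposited as 1 peak list per group, made by the authors from both samples, per the series' design text. Coordinates are on hg19, per the file headers. The headers name the lists IDR (irreproducible discovery rate) peaks; aligner, peak caller, control and filters are not given in the sources used here. The deposited signal per peak, of unstated normalization, served to rank peaks within a list. Deposited −log10 q-values filtered CEBPB peaks, and deposited −log10 p-values of CEBPB gave another ranking. The KLF5 lists hold no p-values. Deposited scores entered no result.

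Distances ran from KLF5 midpoints to CEBPB summits, and 100 bp counted as the same site. Named are the 10 highest sites of each of 3 classes (both factors within 100 bp, KLF5 alone and CEBPB alone with 10 kb as the limit) and others said to be chosen later. The planned gene lists, gene-start shares and motif shares of peaks were not run, since no hg19 annotation or sequence was used. The members and lists were chosen with earlier results of these data known. RefSeq held 27 of 27 named symbols on the expected chromosome. Distances were tested on simulated data (Python 3.11.15, numpy 2.4.6, pandas 2.3.3, scipy 1.17.1, matplotlib 3.10.9).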

Additional observations from a re-analysis of the deposited data

How the results depend on the processing

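The KLF5 share with CEBPB within 100 bp (37.2%) was 30.1% at 50 bp, 43.2% at 250 bp, 50.4% at 1 kb, 43.7% for intervals sharing 1 bp, 34.2% with CEBPB q-values of 0.05 or less, 16.6% with a CEBPB list as long as the KLF5 list and 40.1% without chromosomes 3, 8 and 20. For CEBPB (0.809%) the first 6 of these gave 0.654%, 0.931%, 1.16%, 0.938%, 1.61% and 16.6%. The median distance (924.5 bp) was 3010.5 bp with the q-value filter, 2604 bp with the higher 50% of each list and 252296 bp with the equal-length list; fewer CEBPB peaks lengthen it by construction. The KLF5 percentile difference (8.01 points) was 3.05 at 1 kb, 14.7 with the equal-length list and 3.05 without the 3 chromosomes, and turned to -1.19 in the higher 50%; the cause was not tested. The CEBPB difference (49.7 points) was 50.1 at 50 bp, 48.5 at 250 bp, 45.2 at 1 kb, 46.2 with the q-value filter, 47.2 in the higher 50%, 24.3 with the equal-length list and 48.0 ranked by −log10 p or 48.05 by −log10 q. The 16HBE14o- share of KLF5 peaks without CEBPB (24.8%) was 34.3% in the higher 50% of KLF5 peaks. Of 58 alternative values for 8 results, 29 stayed within the interval of the reported value. The alternatives without chromosomes 3, 8 and 20, by −log10 q, for the 16HBE14o- shares and for loci were chosen after seeing the data. Ranking KLF5 by p-value was not run, the list holding none, nor were the alternatives for gene-start windows, motif windows and gene lists. Leaving out a replicate was not run, and no paired analysis was possible because each list pools both samples and gives no test. Unknown depth limits every count of missing sites.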

Other observations

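CEBPB peaks lay at several places in the region of the KLF5 gene. Within 20 kb of the summit of chr13:73635927-73636925 lay 5 CEBPB peaks, of which 3 were above percentile 99.9 of the list: that peak (signal 39.6), chr13:73633404-73633789 (signal 30.2) and chr13:73649777-73650093 (signal 27.9). Both others were at percentiles 47.7 and 91.7. The nearest Calu-3 KLF5 midpoint to any of them was 22.6 Mb away, and the nearest 16HBE14o- KLF5 midpoint was 2.63 Mb away. The whole of chromosome 13 held only 12 Calu-3 KLF5 peaks and 723 CEBPB peaks. KLF5 is named here from general knowledge of hg19, and the region was singled out after its values were seen. 

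On the autosomes, the KLF5 peak farthest from any CEBPB summit was also on this chromosome, at chr13:109909491-109909770, 312 kb away.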
